A study of Homo sapiens with 10 samples.

Results

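Fc receptors bind the constant part of antibodies and tie them to cells. The genes described here are 10 members of this system, chosen by symbol from the 19590 genes of the RNA-Seq table of the series. They encode the activating IgG receptors FCGR1A, FCGR2A and FCGR3A, the inhibitory IgG receptor FCGR2B, the IgE receptors FCER1A and FCER2, the IgA receptor FCAR, the IgG transport receptor FCGRT, the signalling chain FCER1G and the kinase SYK. They were compared between MV4-11 cells infected with the control vector (control, 4 replicates) and IRF8 knockout cells of the same line (IRF8 KO, 4 replicates), to ask how the Fc receptor system differs when the transcription factor IRF8 is targeted.

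MV4-11 is an established acute myeloid leukemia line of the monocytic M5 subtype that carries an internal tandem duplication of FLT3. All cells were grown in RPMI medium with fetal calf serum, without a further treatment in the labels. The knockout cells were made with a CRISPR/Cas9 lentiviral vector and are clones from limiting dilution, made with a pair of different guides, and the labels do not say which clone gave which library. The methods describe fewer knockout clones than there are knockout libraries, so libraries may share a clone. The control cells are not described as clones. Traits of single clones and the loss of IRF8 therefore cannot be told apart here. The labels also do not say whether replicates come from separate cultures, so p-values may measure technical spread only.

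Most Fc receptors have little signalling capacity of their own. FCGR1A, FCGR3A, FCER1A and FCAR work with the gamma chain encoded by FCER1G, which carries an immunoreceptor tyrosine-based activation motif (ITAM), while FCGR2A has such a motif in its own tail. SRC family kinases phosphorylate the ITAM, SYK docks to it through its SH2 domains, and adaptors, phospholipase C and VAV proteins carry the signal on to phagocytosis and cytokine release. FCGR2B has an inhibitory motif (ITIM) that recruits the lipid phosphatase INPP5D (SHIP1). Monocytes and macrophages are among the cells known for this system.

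Values are normalized counts, the read count of a gene divided by the size factor of its library. Depth ranged from 39560072 to 65519047 reads on genes per library, and 1 read was worth between 0.804 and 1.35 normalized counts. Log2 fold changes (with SE, the standard error) are IRF8 KO minus control on log2(normalized count + 1). limma was fitted to the 13110 genes whose mean reached 10, and p-values were adjusted over all of them after Benjamini and Hochberg. The exact permutation test is two-sided and cannot go below 0.029 with 4 libraries against 4. The targeted gene, IRF8, was at 36891, 15192, 43015.5 and 22535 in control replicates 1 to 4 and at 6377, 2401, 12903 and 7819.7 in IRF8 KO replicates 1 to 4. Its RNA was lower in the knockout (log2 fold change -2.11, limma adjusted p = 0.022), but not absent. The adjusted p was 0.058 without control replicate 1, 0.057 without control replicate 3 and 0.053 without IRF8 KO replicate 1. RNA does not measure the protein. The paper reports that IRF8 protein was missing from the knockout clones by Western blot. It also reports by ChIP that IRF8 was no longer found at its target genes. Of the myeloid markers, CSF1R was between 3239.6 and 7184, CD33 between 2101 and 3565 and SPI1 (PU.1) between 7021 and 14377 in all libraries, whereas CD14 did not exceed 25.6. Of 11 monocyte markers, ITGAM, CD68 and MPO were higher in the knockout, VCAN was lower and 7 did not pass. Their summed level was 21653 to 35681 in the control and 51870.4 to 82046 in IRF8 KO replicates 2 to 4. Large parts of the sum in these replicates were LYZ, at 13767 to 39385, and MPO, at 8974 to 13260. In the control, LYZ was at 1734 to 14757 and MPO at 712 to 823. LYZ did not pass (limma adjusted p = 0.060). In IRF8 KO replicate 1 the sum was 301680.0, of which LYZ alone made up 248604. Among the control libraries, deviations from the group mean correlated across genes at 0.83 between replicates 1 and 3 and at 0.71 between replicates 2 and 4. Among the knockout libraries the same pairs were at -0.13 and 0.048, and the other pairs between -0.68 and -0.16. Deviations from a mean of 4 libraries tend to correlate negatively, so values near 0 do not show that the pattern is absent. Between control and knockout libraries, correlations were 0.37 to 0.50 where both numbers were odd or both even, and -0.47 to -0.37 elsewhere. Differences within replicates 1 and 3 and within replicates 2 and 4 are given beside the pooled values. In bulk RNA, fewer cells of a kind and less RNA per cell cannot be told apart.

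Promoter stretches of 4 genes that differed and held motif matches are shown because IRF8 is known to bind DNA together with PU.1, at sites where an ETS and an IRF motif are joined. RefSeq windows of assembly GRCh38.p14, from 250 bases before to 50 bases after an annotated start, were found for 9 of the 10 genes. Both strands were searched for GGAA and then GAAA with any 2 bases between them (ETS-IRF composite), GAAA and then GAAA with any 2 bases between them (IRF), TTCNNNGAA (GAS, the site of STAT factors) and GAGGAAG (PU.1 core). These occur in 2.55%, 3.19%, 6.85% and 14.5% of the 21034 windows of all genes in the table. The 250 bases before the start follow for 4 genes, read 5′ to 3′ on the strand of the gene, with matches in capitals. The FCGR1A stretch is chr1:149782444-149782693 on the plus strand, that of FCGR2A chr1:161505207-161505456 on the plus strand, that of FCGR2B chr1:161662893-161663142 on the plus strand and that of FCER2 chr19:7699442-7699691 on the minus strand.
FCGR1A: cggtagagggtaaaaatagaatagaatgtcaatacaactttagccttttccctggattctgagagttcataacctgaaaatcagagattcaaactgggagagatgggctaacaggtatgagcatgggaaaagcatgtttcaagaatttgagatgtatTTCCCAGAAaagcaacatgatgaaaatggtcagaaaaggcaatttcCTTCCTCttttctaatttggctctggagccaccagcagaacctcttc
FCGR2A: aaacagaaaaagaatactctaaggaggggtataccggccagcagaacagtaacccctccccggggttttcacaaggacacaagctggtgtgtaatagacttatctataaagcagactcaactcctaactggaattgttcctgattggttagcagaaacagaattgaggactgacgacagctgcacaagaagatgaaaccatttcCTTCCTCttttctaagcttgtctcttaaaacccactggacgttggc
FCGR2B: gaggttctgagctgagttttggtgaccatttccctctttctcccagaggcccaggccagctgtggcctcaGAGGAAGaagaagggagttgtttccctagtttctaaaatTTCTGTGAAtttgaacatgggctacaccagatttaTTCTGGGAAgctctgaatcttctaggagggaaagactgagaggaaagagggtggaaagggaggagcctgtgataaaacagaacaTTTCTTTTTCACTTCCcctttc
FCER2: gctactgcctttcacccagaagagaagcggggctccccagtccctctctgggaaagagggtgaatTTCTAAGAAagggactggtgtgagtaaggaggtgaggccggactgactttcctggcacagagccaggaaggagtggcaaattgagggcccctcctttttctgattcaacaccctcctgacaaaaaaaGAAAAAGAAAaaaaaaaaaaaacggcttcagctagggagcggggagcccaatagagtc

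FCGR1A held a GAS match that starts 93 bases before the start and, on the other strand, a PU.1 core 47 bases before it. FCGR2A held a PU.1 core on that strand at 46 bases before its start. Both cores lie in a run of 20 bases shared by these promoters, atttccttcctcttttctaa, which was found in the windows of 2 of 27305 genes, FCGR1A and FCGR2A. FCGR2B was the single member with an ETS-IRF composite match, 16 bases before the start and overlapping an IRF match at 22 bases before it, beside a pair of GAS matches and a PU.1 core. This window belongs to the start that lies further downstream, and the other FCGR2B window held no match. FCER2 held an IRF match within a run of A and a GAS match in 1 of its 2 windows. One window of FCGR3A held an IRF match and a PU.1 core, 1 window of SYK held a pair of PU.1 cores, and the windows of FCER1A, FCGRT and FCER1G held none of these letters. A match is a description of the sequence and no evidence of binding.

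Of the 10 genes, 8 reached the mean of 10 normalized counts and were tested. FCGR1A and FCAR were higher in IRF8 KO at an adjusted p below 0.05, as were 8.65% of all tested genes. FCGR2A, FCGR2B, FCER2 and FCGRT were lower, as were 9.56% of all tested genes, so that 6 of the 8 passed in either direction beside 18.2% of all. FCER1G and SYK did not pass. FCAR reached the mean only through its knockout values, and without it 5 of 7 passed. The members were chosen with earlier results of these data known, so these shares are no test of the members as a group. The cutoffs in the methods of the study (2-fold or more, p below 0.01 before adjustment) were also applied to the limma fit, whereas the study used DESeq2. By these cutoffs, FCAR was higher and FCER2 and FCGRT were lower, beside 10.9% of all tested genes in either direction. Among the 8 tested genes, the control and knockout values did not overlap for the same 6 that passed, beside 25.3% of all tested genes. Those of FCER1A, which was not tested, did not overlap either.

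**Figure D1:**
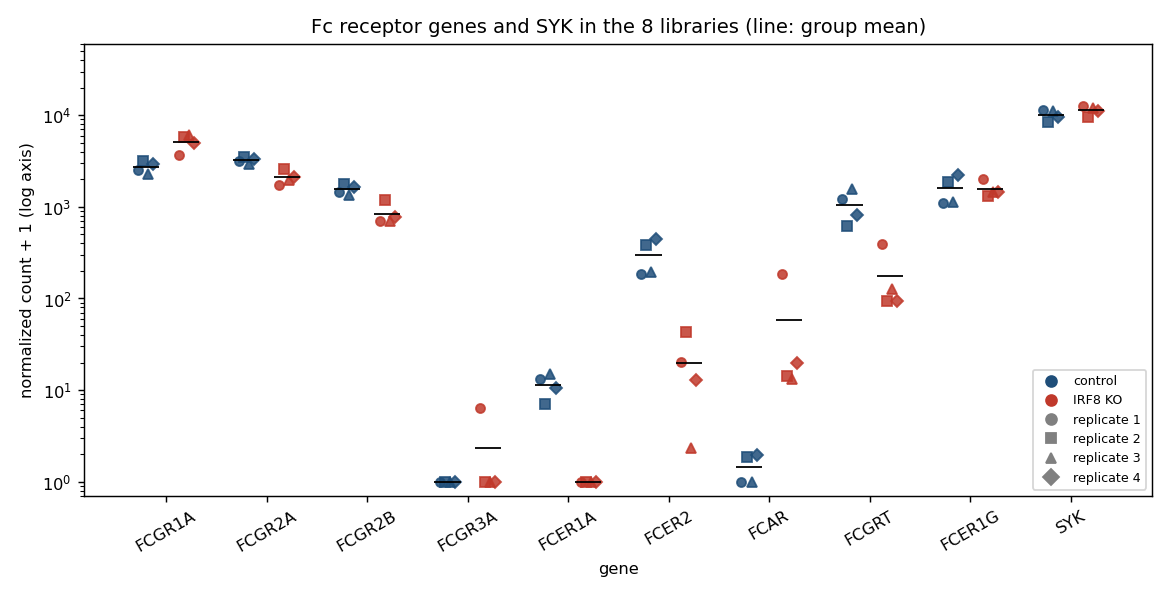
Normalized count + 1 (log axis) of the 10 genes in each of the 8 libraries, with control in blue, IRF8 KO in red, symbols for replicate numbers and a line at each group mean. FCER2 and FCGRT lie lower in all 4 knockout libraries, FCAR lies at or near 0 in the control, and the FCER1G and SYK points overlap between groups.

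FCGR1A encodes the high-affinity IgG receptor CD64, which can hold monomeric IgG and is known as a gene induced by interferon gamma. Its level was 2556, 3178, 2306 and 2968 in control replicates 1 to 4 and 3706, 5750.2, 6109 and 4973 in IRF8 KO replicates 1 to 4. Every knockout library was above every control library, with replicate 1 the lowest of the knockout. The means were 2752 ± 394 and 5134.5 ± 1064 (SD, n = 4), a log2 fold change of 0.89 (SE 0.18, adjusted p = 0.010 with limma), or 1.85-fold. The difference was 0.97 within replicates 1 and 3 and 0.80 within replicates 2 and 4. FCGR1B, listed in RefSeq as the pseudogene FCGR1BP, is nearly identical to FCGR1A and may share its reads. It had a log2 fold change of 0.90 (adjusted p = 0.013), and the ratio of FCGR1A to FCGR1B was between 1.21 and 1.28 in the control and between 1.21 and 1.27 in the knockout libraries. How the reads divide between both copies is therefore uncertain, while both rows differed alike.

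FCGR2A encodes CD32A, the activating receptor for immune complexes that carries its own ITAM. Control replicates 1 to 4 had 3146, 3529.6, 2902 and 3344 normalized counts and IRF8 KO replicates 1 to 4 had 1747, 2591, 1964 and 2100.3. The groups did not overlap, and replicate 2 was the highest in each. The level fell from 3230.5 ± 269 to 2100.4 ± 358 (SD, n = 4), with a log2 fold change of -0.63 (SE 0.14, adjusted p = 0.015 with limma), or 1.55-fold lower. The differences were -0.71 within replicates 1 and 3 and -0.56 within replicates 2 and 4. When any 1 library was dropped, the adjusted p stayed at or below 0.046.

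FCGR2B encodes CD32B, the ITIM receptor that restrains activating receptors bound to the same complex. It was at 1443, 1756, 1355 and 1644 in control replicates 1 to 4 and at 696, 1202, 704 and 775 in IRF8 KO replicates 1 to 4. Replicate 2 was again the highest of each group and the groups did not overlap. The means of 1549.6 ± 183 and 844 ± 241 (SD, n = 4) gave a log2 fold change of -0.91 (SE 0.20, adjusted p = 0.013 with limma), or 1.87-fold lower. The difference was -0.997 within replicates 1 and 3 and -0.81 within replicates 2 and 4. FCGR2C, a nearly identical copy, was not analysed here, and reads of both could be divided differently in other counts.

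Because a ratio within a library does not depend on its scaling, FCGR2A was set against FCGR2B. There were between 2.01 and 2.18 FCGR2A counts for each FCGR2B count in the control and between 2.16 and 2.79 in the knockout libraries. The log2 ratio was 1.06 ± 0.057 and 1.34 ± 0.17 (SD, n = 4), a difference of 0.27. The ranges overlapped, with the ratio of IRF8 KO replicate 2 below the highest control ratio. Within each of the 4 replicate numbers, FCGR2A fell by less than FCGR2B.

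FCGR3A encodes CD16A, the IgG receptor of natural killer cells and of the nonclassical monocyte subset. It had 0 reads in all control libraries and in 3 of the 4 knockout libraries, and 5.33 normalized counts in IRF8 KO replicate 1. The nearly identical FCGR3B did not exceed 3.20. Neither was tested, and FCGR3A was not detectable in 7 of the 8 libraries at this depth, where a count of 0 allows up to 3 reads.

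**Figure D2:**
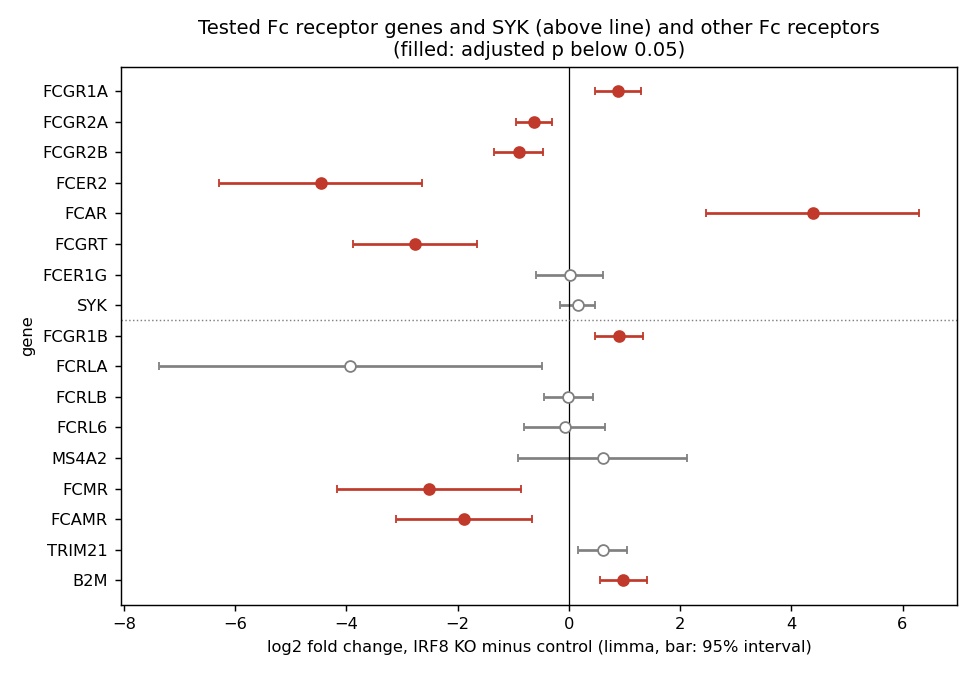
Log2 fold change (IRF8 KO minus control, limma) with its 95% interval for the 8 tested members above the dotted line and for 9 other Fc receptor genes below it, filled where the adjusted p is below 0.05. The FCER2 and FCGRT intervals lie below 0, the FCAR and FCGR1A intervals above 0, and those of FCER1G and SYK include 0.

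Of the IgE receptors, FCER2 passed the test and FCER1A had no read in the knockout. FCER2 encodes CD23, a lectin-type receptor best known from B cells that is also found on activated monocytes and needs no gamma chain. Control replicates 1 to 4 had 183, 383, 195 and 443 normalized counts and IRF8 KO replicates 1 to 4 had 19.2, 42.1, 1.35 and 11.8. The lowest control library was above the highest knockout library, and replicates 2 and 4 were the higher ones in the control. The means were 301 ± 131 and 18.6 ± 17.3 (SD, n = 4), with a log2 fold change of -4.46 (SE 0.81, adjusted p = 0.0059 with limma), or 22.0-fold lower on the log scale and 16.2-fold lower by the means. The log2 fold change was -3.65 without IRF8 KO replicate 3, which held 1 read, and -5.05 without IRF8 KO replicate 2. The differences within replicates 1 and 3 and within replicates 2 and 4 were -4.79 and -4.14.

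FCER1A encodes the IgE-binding chain of the high-affinity receptor of mast cells, basophils and dendritic cells. It was low throughout, with 12.1, 6.04, 13.96 and 9.42 normalized counts in control replicates 1 to 4 and 0 in every knockout library. These are 45 reads against 0. With a floor of 3 reads over the knockout group, FCER1A was at least 12.8-fold lower. Its mean was below 10, so it was not in the limma fit, and the exact permutation p was 0.029, the smallest this design allows. MS4A2, the beta chain of the same receptor, had 26.7 to 129.9 normalized counts in the control and 29.6 to 183 in the knockout libraries (log2 fold change 0.61, limma adjusted p = 0.60).

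Markers of cells known for these receptors were measured beside them. Of 7 dendritic cell markers, CD1C, CLEC10A and IL3RA passed the test and were lower, 1 of the 4 tested did not pass, and XCR1 was at 0 in all libraries. FLT3, which did not pass, was at 43847 to 66773 in the control and made up most of the summed level of the list, 49719 to 72739.7 in the control and 40826 to 54452 in the knockout. CLEC9A had no read in the control and 3 to 16 reads in the knockout libraries. Of the B cell markers, MS4A1 was at 0 in all libraries, and the sum of the list was 479 to 972 in the control and 437 to 1853 in the knockout. Of 7 mast cell and basophil markers, 6 were tested, of which CPA3 was higher and 5 did not pass. Among these 5, KIT, TPSAB1 and TPSB2 had lower means in the knockout, and GATA2 and MS4A2 had higher ones. CPA3 had no read in the control and 6.39 to 53.1 normalized counts in the knockout libraries. Like FCAR, it reached the mean needed for testing only through its knockout values. The sum of the list was 607 to 1183 in the control and 1008 to 1842 in the knockout, where GATA2 alone was at 767 to 1574. The part of these differences in those of FCER1A and FCER2 was not tested.

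FCAR encodes CD89, the IgA receptor of monocytes and neutrophils. It had 0, 0.863, 0 and 0.942 normalized counts in control replicates 1 to 4, which are 2 reads in all. IRF8 KO replicates 1 to 4 had 184, 13.4, 12.2 and 18.7, which are 215 reads. All 4 knockout libraries were above the control, and replicate 1 alone held most of the reads. The summed reads of each group were divided by its summed size factors. The ratio of knockout to control was then 126, with a counting interval of 34.6 to 1050.1 at 95%. Without IRF8 KO replicate 1 it was 32.95 (8.57 to 281). The log2 fold change was 4.39 (SE 0.84, adjusted p = 0.0078 with limma) and 3.49 without that library. It was 2.67 with a pseudocount of 5 and 6.61 with edgeR on the recovered reads. Intervals cover counting error only. IRF8 KO replicate 1 also had the highest LYZ, at 248604 normalized counts beside 13767 to 39385 in the other knockout libraries, and the highest S100A9, at 5839 beside 402 to 2984. The part of these myeloid genes in the FCAR value was not tested.

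FCGRT encodes the heavy chain of the neonatal Fc receptor, which binds IgG and albumin in endosomes, returns them to the cell surface and needs beta-2 microglobulin (B2M) as its partner. Control replicates 1 to 4 had 1207, 618, 1565 and 807 normalized counts and IRF8 KO replicates 1 to 4 had 389, 91.8, 127 and 93.5. The groups did not overlap, and replicate 1 stood above the other knockout libraries. The level fell from 1049 ± 422 to 175 ± 143 (SD, n = 4), to 16.7% of the control mean, with a log2 fold change of -2.77 (SE 0.49, adjusted p = 0.0054 with limma). Without IRF8 KO replicate 1 the knockout mean was 104 ± 20.04 (SD, n = 3) and the log2 difference -3.25. The differences within replicates 1 and 3 and within replicates 2 and 4 were -2.62 and -2.92. B2M moved the other way, from 35224 to 44283 in the control to 58173 to 107954 in the knockout libraries (log2 fold change 0.98, limma adjusted p = 0.0077). In the control, FCGRT and IRF8 were both higher in replicates 1 and 3 than in replicates 2 and 4, and FCER2 was lower in them.

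FCER1G, the ITAM chain shared by several of these receptors, did not pass the test. Its level was 1093, 1889, 1127 and 2254 in control replicates 1 to 4 and 2009.8, 1308, 1435 and 1438 in IRF8 KO replicates 1 to 4. The knockout values lay within the range of the control values. The means were 1591 ± 575 and 1548 ± 314 (SD, n = 4), and the log2 fold change was 0.01 with a 95% interval of -0.58 to 0.61 (limma adjusted p = 0.98). The replicates differed in direction. The knockout library was higher within replicates 1 and 3 (mean difference 0.61) and lower within replicates 2 and 4 (mean difference -0.59).

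TYROBP (DAP12), the other main ITAM chain of myeloid cells, differed from this. It was at 1831, 2035, 1888 and 1934 in control replicates 1 to 4 and at 4985, 4046, 4394 and 3779 in IRF8 KO replicates 1 to 4. All knockout libraries were above the control (log2 fold change 1.16, SE 0.12, limma adjusted p = 0.00036). The number of FCER1G counts for each TYROBP count was between 0.597 and 1.17 in the control and between 0.323 and 0.403 in the knockout libraries. The log2 ratio was -0.34 ± 0.48 and -1.49 ± 0.16 (SD, n = 4), and its ranges did not overlap.

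**Figure D3:**
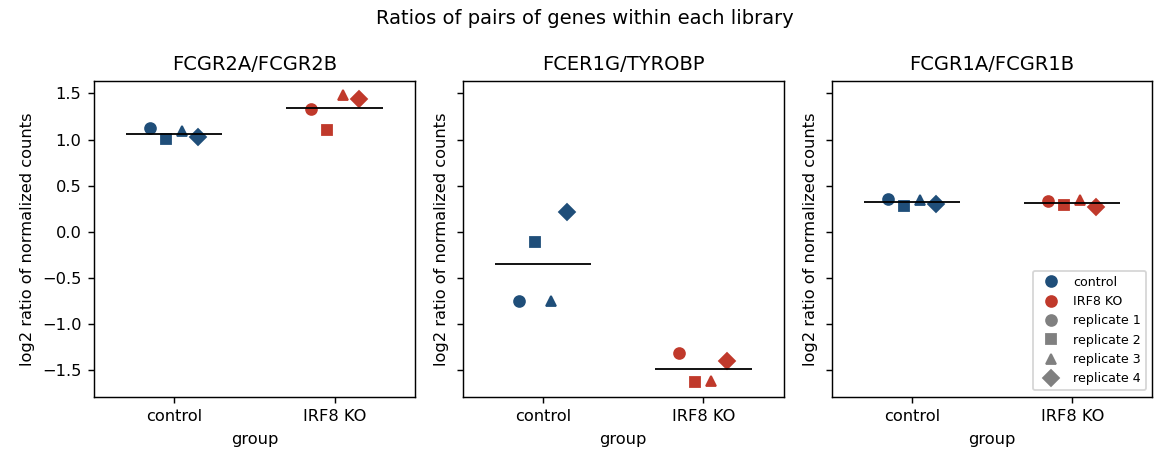
Log2 ratio of the normalized counts of 3 pairs of genes in each library, with a line at each group mean and a common vertical scale. The FCER1G to TYROBP ratio is lower in all 4 knockout libraries, the FCGR2A to FCGR2B ranges overlap slightly, and the ratio of the near copies FCGR1A and FCGR1B is 1.21 to 1.28 in all libraries.

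SYK, the kinase on which the ITAM chains converge, was at 11495, 8540.2, 11120.1 and 9478 in control replicates 1 to 4. IRF8 KO replicates 1 to 4 had 12635, 9667, 11882 and 11117. The groups overlapped, with replicate 1 the highest and replicate 2 the lowest of each. The means were 10158 ± 1390 and 11325 ± 1267 (SD, n = 4). The log2 fold change was 0.16 with a 95% interval of -0.15 to 0.47 (limma adjusted p = 0.48), and the exact permutation p was 0.26. In each of the 4 replicate numbers the knockout library was the higher one, by 0.14, 0.18, 0.10 and 0.23 on the log2 scale, and a replicate block gave an adjusted p of 0.23. ZAP70, the SYK paralogue of T and natural killer cells, did not exceed 6.77 normalized counts and was not tested.

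**Figure D4:**
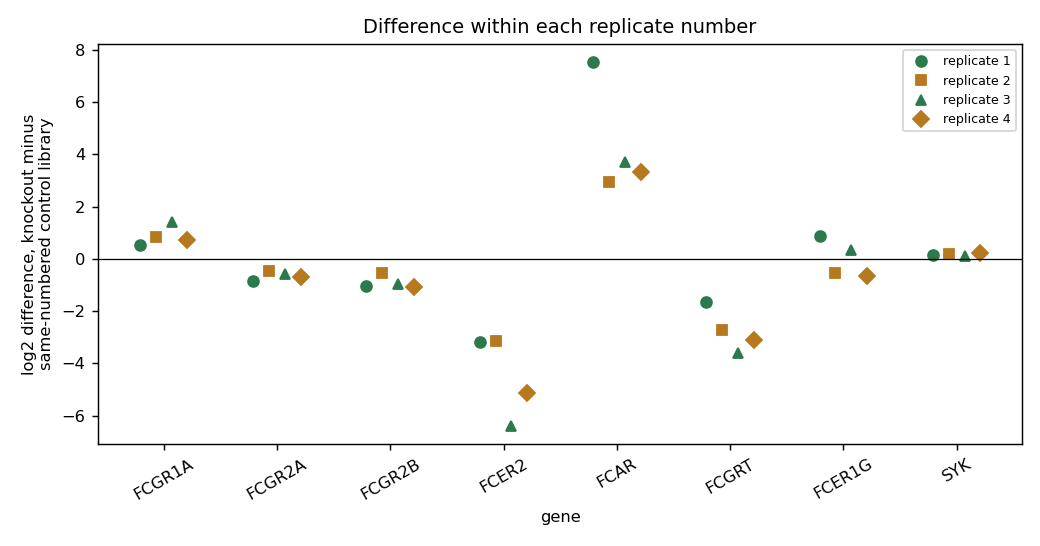
Log2 difference between the IRF8 KO and the control library of the same replicate number for the 8 tested genes, with odd numbers in green and even numbers in brown. The 4 points lie on one side of 0 for each gene except FCER1G, whose odd points are above and even points below 0.

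The profile of SYK over the 8 libraries was nearest to those of TBCCD1, PSME4 and TMEM33 among 10986 genes with a mean of at least 100. Their root mean square differences from SYK on the centred log2 scale were 0.047, 0.048 and 0.050, and none of these 3 genes passed the test. For FCGR1A, the nearest were its copy FCGR1B (0.032), CASP4 (0.11) and DUSP22 (0.16). CASP4 and DUSP22 were both higher in the knockout, with log2 fold changes of 0.86 (limma adjusted p = 0.0051) and 0.72 (adjusted p = 0.011).

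The other Fc receptor genes were sparse. Of 20 listed, 16 were in the table and 9 were tested, of which 2 were higher, 2 lower and 5 did not pass, beside 8.65% higher and 9.56% lower among all tested genes. The higher ones were FCGR1B and B2M, described above. FCMR, the receptor for IgM, had 131, 332, 123 and 406 normalized counts in control replicates 1 to 4 and 7.46, 79.3, 54.2 and 55.1 in IRF8 KO replicates 1 to 4. It was lower (log2 fold change -2.51, limma adjusted p = 0.044), as was FCAMR, a receptor for IgA and IgM (-1.88, adjusted p = 0.041). Neither call held without control replicate 1, 3 or 4 or without IRF8 KO replicate 3 or 4, that of FCMR was also lost without control replicate 2, and that of FCAMR without IRF8 KO replicate 1 or 2. Over these the adjusted p reached 0.11 for each. FCRLA, an intracellular Fc receptor-like protein of B cells, ranged from 56.9 to 2261 in the control and from 4.26 to 127 in the knockout libraries. Its log2 fold change of -3.93 had an adjusted p of 0.11 in limma, and 0.00022 with the replicate number as a block. FCRLA also passed with DESeq2 and with a covariate for replicates 1 and 3 against 2 and 4. TRIM21, the cytosolic antibody receptor, had a log2 fold change of 0.61 (limma adjusted p = 0.061, and 0.015 with the block). It also passed with edgeR, DESeq2 and that covariate, and without IRF8 KO replicate 2. FCRL3 and FCRL5 were at 0 in all libraries.

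The genes through which Fc receptors signal were counted as a list of 75, of which 68 were tested. Of these, 8 were higher and 13 lower at an adjusted p below 0.05, which is 21 of 68 beside 18.2% of all tested genes, and 47 did not pass. This list was also chosen with earlier results of these data known, so its share is no test of the list. The median log2 fold change of the list was -0.12, beside -0.00094 for all tested genes. The adaptor chains TYROBP and HCST (DAP10, log2 fold change 1.10) were higher. None of the 7 genes from SYK to NF-kappaB and the MAP kinases passed. Of the 18 tested genes listed as inhibitors, 2 were higher (PTPN22 and PTPRC) and 5 lower. PTPRC can also activate SRC family kinases, as described below.

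**Figure D5:**
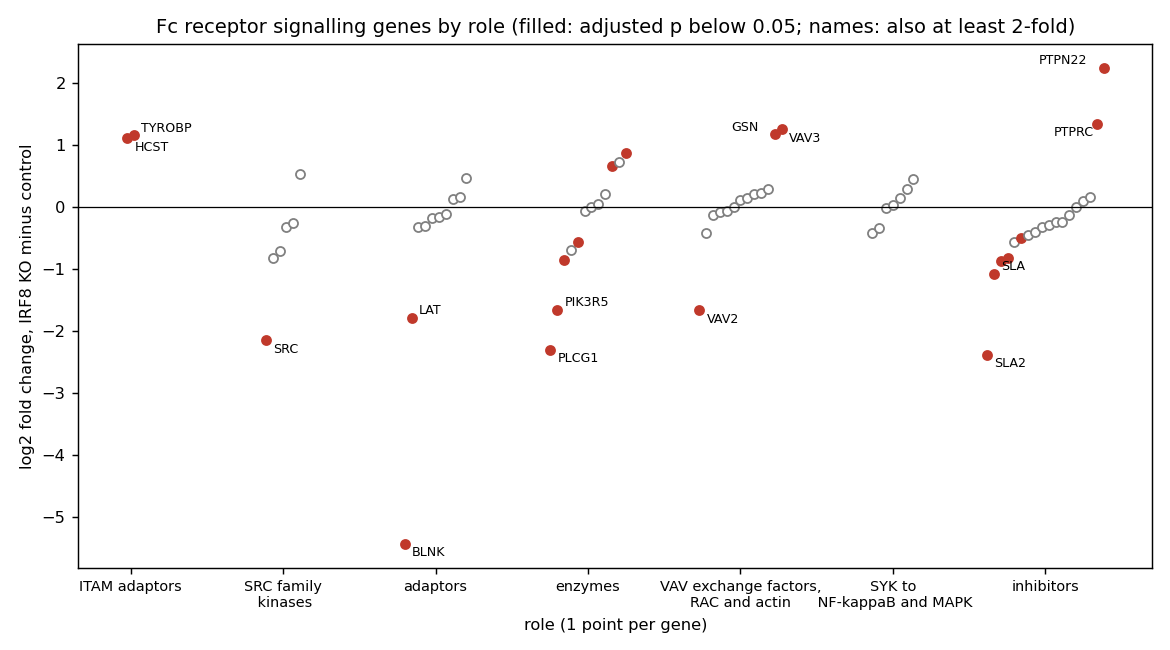
Log2 fold change (IRF8 KO minus control) of the 68 tested Fc receptor signalling genes, 1 point each, by role, filled where the limma adjusted p is below 0.05 and named where the difference is also at least 2-fold. BLNK has the lowest value at -5.42 and PTPN22 the highest at 2.24.

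Among the SRC family kinases that phosphorylate ITAMs, LYN, the main one at IgE receptors, was at 11672 to 13339.8 in the control and at 9726 to 10592 in the knockout libraries. The groups did not overlap, but the log2 fold change of -0.32 had a limma adjusted p of 0.052 (0.049 with the replicate block). LYN also passed with upper quartile scaling, edgeR, DESeq2 and a covariate for replicates 1 and 3 against 2 and 4. It passed in no fit with a library left out. FGR did not pass (-0.71, adjusted p = 0.26). SRC itself was lower, from 2341 ± 321 to 532 ± 99.4 (SD, n = 4), with a log2 fold change of -2.14 (limma adjusted p = 0.00012).

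Of the adaptors that connect SYK to phospholipase C, BLNK and LAT were lower and others did not pass. BLNK, the adaptor known from B cells and also used by myeloid cells, was at 425, 154, 546 and 300.4 in control replicates 1 to 4 and at 7.46, 3.82, 14.9 and 3.93 in IRF8 KO replicates 1 to 4. Its log2 fold change was -5.42 (SE 0.51, adjusted p = 0.00028 with limma). LAT, the membrane adaptor of T cells and mast cells, was lower by 1.78 on the log2 scale, whereas the adaptors LCP2 (SLP-76) and LAT2 did not pass (adjusted p = 0.77 and 0.55). PLCG1 was lower, at 636 to 1055 in the control and 129 to 238 in the knockout (log2 fold change -2.30, limma adjusted p = 0.00053). Its paralogue PLCG2, the form of most myeloid and B cells, was at 4163 to 6542 and 4756 to 7197 and did not pass (log2 fold change 0.21, adjusted p = 0.54). BTK, which activates PLCG2, had a log2 fold change of -0.0042 (adjusted p = 0.99). SRC, PLCG1 and SLA2 lie on chromosome 20. Over the 351 tested genes there, the log2 fold change had a median of -0.92. The part of that shift in their differences was not tested.

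Further downstream, PIK3R5, a regulatory subunit of the gamma isoform of PI3 kinase, was lower (-1.66, limma adjusted p = 0.0081). The exchange factors of the VAV family differed in direction. VAV2 fell from 3483 ± 125 to 1148 ± 341 (SD, n = 4) and VAV3 rose from 832 ± 96.4 to 1978 ± 170.4 (SD, n = 4), with log2 fold changes of -1.66 and 1.25 (limma adjusted p = 0.0017 and 0.00039). Gelsolin (GSN), which severs actin filaments, was higher by 1.17 on the log2 scale (adjusted p = 0.0037).

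The inhibitors include the enzymes that act for FCGR2B. INPP5D was at 14304, 19312, 13503 and 19941 in control replicates 1 to 4 and at 9438, 8771, 8626 and 9457 in IRF8 KO replicates 1 to 4. All knockout libraries were below the control (log2 fold change -0.87, SE 0.15, limma adjusted p = 0.0049). The tyrosine phosphatase PTPN6 (SHP-1) was lower as well, from 25122 ± 1064 to 14422 ± 2506 (SD, n = 4), with a log2 fold change of -0.82 (limma adjusted p = 0.0041). SLA2 (log2 fold change -2.38) and SLA (-1.07), adaptors that lead to the loss of receptors from the surface, were lower. PTPN22, a phosphatase that acts on SRC family and SYK family kinases, was higher, from 179 to 503 in the control to 1003 to 2404 in the knockout (log2 fold change 2.24, limma adjusted p = 0.0065). PTPRC (CD45), which can activate SRC family kinases by removing their inhibitory phosphate, was higher by 1.34 on the log2 scale (adjusted p = 0.025). The adjusted p of PTPRC was between 0.051 and 0.071 without control replicate 1 or 3 or without IRF8 KO replicate 1, 3 or 4. That of SLA was between 0.052 and 0.061 without control replicate 1 or without IRF8 KO replicate 1 or 4.

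The nearest tested genes on each side of the members were looked at by their order in RefSeq, so genes that were not tested were passed over. Those named here were chosen after their values were seen. FCGR2A, FCGR3A and FCGR2B lie in one cluster on chromosome 1, in which the heat shock gene HSPA6 was lower as well (log2 fold change -1.31, limma adjusted p = 0.018) and FCRLB did not pass (-0.0080, adjusted p = 0.98). On chromosome 19, the nearest tested genes before FCAR are the leukocyte receptors LILRA1, LILRB1 and LILRB4. Their log2 fold changes were -1.51, -1.14 and -5.15, while FCAR was higher. The nearest tested genes after FCAR, NLRP2, RDH13 and EPS8L1, did not pass (0.54, 0.017 and -0.057). CD209 (DC-SIGN) and CLEC4G, other C-type lectins, are among the nearest tested genes on one side of FCER2. Both were lower (-3.66 and -1.64), whereas RETN on the other side of FCER2 was higher (2.96, limma adjusted p = 0.046). The median log2 fold change was -0.010 over the 1335 tested genes of chromosome 1, -0.082 over the 1022 of chromosome 19 and -0.0052 over the 515 of chromosome 9, which holds SYK.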

How the data were processed

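RNA-Seq libraries of MV4-11 cells (4 control, 4 IRF8 KO) were analysed, and the ChIP-Seq samples were not used here. The authors used RNA-Star 2.7.2b with GENCODE v32 for alignment and featureCounts 2.0.1 for reads per gene, and deposited a signal per gene, counts normalized with DESeq2 2.11.40.6. The submitters' processing notes name hg19 and hg38 without a role. A deposited table of the authors' comparison (fold changes and p-values) was not used. The control columns are named as wild type in the file and were read as control replicates by their number. No column was left out (0 unused).

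Dividing by the lowest value of each library returned whole reads (within 0.01) for 100% of values. Each library held 39560072 to 65519047 reads (median 52233344), so counting error weighs on values near 10. limma 3.58.1 (trended, robust) in R 4.3.3 compared log2(normalized count + 1) of 13110 genes with a mean of at least 10, and understates changes of low genes. Exact permutation tests compared single genes. The scripts were tested on simulated data. Replicate numbers were checked for pairing: deviations of same-numbered libraries correlated across genes at 0.37, 0.48, 0.45 and 0.50, but also at 0.40 to 0.47 between control and knockout libraries of different numbers that are both odd or both even. The fit had no block, and the block is an alternative, since no source says what a number marks. Alternatives were pseudocounts of 0.5 and 5, no filter or a mean of at least 100, upper quartile scaling, the recovered reads with edgeR 4.0.16 and with DESeq2 1.42.0, a replicate block, leaving out each library, and, chosen after seeing the data, a covariate for replicates 1 and 3 against 2 and 4.

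Named genes are the 10 members, IRF8, near copies, signalling genes that passed with at least 2-fold difference, LYN, FGR, TYROBP, ZAP70, PLCG2, BTK, INPP5D and PTPN6, and the 3 nearest profiles of SYK and FCGR1A. A gene of this rule and a marker are not reported here. Other genes named were chosen after their values were seen. Members and lists were chosen with earlier results of these data known. Promoters are from RefSeq, GRCh38.p14. Protein sequences and a promoter of FCAR were not used here.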

Additional observations from a re-analysis of the deposited data

Results flagged for a closer look

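For the 10 genes and IRF8, the groups of 4 libraries were searched for a library far from the other 3 on the log2 scale. Chance marks about 1 in 20 groups. Of the 20 groups tested, 2 were marked, both with IRF8 KO replicate 1 apart. For FCAR, the gap between its 184 normalized counts and the next library was 0.848 of the whole range, above Dixon's 95% critical value. For FCGR3A the quotient was 1.0, which it is whenever the other 3 libraries are at 0, and it rests on 5 reads (5.33 normalized counts). FCGR3A in the control and FCER1A in the knockout were at 0 in all libraries and have no quotient. The same library had the highest FCGRT and FCER1G and the lowest FCGR1A of the knockout group, without passing that limit.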

How the results depend on the processing

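The calls of FCGR1A, FCGR2A, FCGR2B, FCER2 and FCGRT and the missing calls of FCER1G and SYK held under every alternative run, with each library left out included. The number of members higher was 1 with a filter at a mean of 100, which leaves FCAR out, and 1 with DESeq2, which gave FCAR no adjusted p. The number of members lower was 5 without a filter, which adds FCER1A, beside 4 in the main fit. Over all genes, 1134 were higher and 1253 lower. With the replicate number as a block these counts were 1857 and 1912, and with the covariate for replicates 1 and 3 they were 2157 and 2176. Of the members, the block changed no call. Leaving out 1 library gave 755 to 1164 higher genes, with the lowest count without control replicate 1, and 910 to 1278 lower genes. Of the signalling genes, 20 were lower with the covariate. Of the other Fc receptor genes, 4 were lower without a filter and 1 with a mean of at least 100, and 0 to 1 with a library left out. The IRF8 log2 fold change ranged from -2.46 to -1.65 with a library left out. No gene that passed the test changed direction. Of the named genes that did not pass, FCER1G ranged from -0.14 to 0.20, BTK from -0.096 to 0.087 and FCRLB from -0.088 to 0.057 over the alternatives. The cause of these shifts was not tested. Depth limits FCGR3A, FCER1A and FCAR, which rest on few reads.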
